A study of Homo sapiens with 8 samples.

Results

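The cluster of miR-191 and miR-425 consists of 4 mature miRNAs, hsa-miR-191-5p, hsa-miR-191-3p, hsa-miR-425-5p and hsa-miR-425-3p, which are cut from a pair of neighbouring hairpins on chromosome 3. They were selected by name, and each had 1 entry in the table, so that 4 of 2588 mature miRNA names were examined. Small RNA-seq had been performed for 4 parental, untreated human cancer cell lines, each represented by 2 libraries that the labels call replicates. These were ES-2 from ovarian cancer, MV-3 from melanoma, Huh-7 from hepatocellular carcinoma and A-549 from lung adenocarcinoma. All were cultured in DMEM with serum and harvested 48 h after seeding, and each tumor type was represented by a single line. The libraries held 1173902 to 2670030 reads on mature miRNAs. As a check of the labels, the liver-specific miR-122-5p reached 83721 ± 3531 (SD, n = 2) normalised CPM in Huh-7 and at most 32.8 ± 9.12 in the other lines. No defining markers of the other lines were examined.

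miRNAs are released from hairpins in longer transcripts by the nucleases Drosha and Dicer. Usually 1 of the 2 arms, the guide, is kept by an Argonaute protein and pairs with mRNAs through its seed, the bases 2 to 8, while the opposite arm is mostly degraded. miR-191 and miR-425 are made from a shared primary transcript and have been described as raised in various tumors, yet miR-191-5p and miR-425-5p are also used as endogenous controls, against which other miRNAs are normalised in RT-qPCR assays. Such a use requires that their level differs little between the samples compared. How far this applied to the 4 lines was therefore analyzed under the deposited scaling and under scaling by library size.

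The hairpin of miR-191 (MIR191) lies at chr3:49020618-49020709 and that of miR-425 (MIR425) at chr3:49020148-49020234 of GRCh38, both on the minus strand, with 383 bases between them. Both are within the gene DALRD3, which encodes a tRNA-binding protein and is transcribed from the same strand. In the GENCODE annotation, 4 of 15 DALRD3 transcripts span the hairpins, and in these 4 each hairpin is intronic. The other DALRD3 transcripts do not reach over them. The MIR191 hairpin also lies in an intron of 1 of 6 transcripts of NDUFAF3, which is read from the opposite strand and encodes a mitochondrial complex I assembly factor. Mature sequences were found in RefSeq (build GRCh38.p14) for 3 of the 4 members. They are shown because the arms of a hairpin carry unrelated seeds, so that a change in the proportion of arms is a change in the potential targets. Capitals mark the seed.
miR-191-5p: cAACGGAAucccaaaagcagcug
miR-191-3p: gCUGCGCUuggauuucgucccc
miR-425-3p: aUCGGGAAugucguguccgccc
None of these 3 seeds was shared by another of the 2281 names in the table that had a RefSeq mature sequence. In the whole MIR191 hairpin of 92 bases, capitals mark both mature arms, the 5p arm first.
MIR191: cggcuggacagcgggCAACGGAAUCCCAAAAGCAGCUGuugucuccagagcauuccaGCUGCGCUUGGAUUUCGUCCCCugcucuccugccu

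Abundance was expressed in 2 ways. Normalised CPM are the deposited values, in which reads were scaled to a common number of miRNA reads per library (CPM) and then divided by a factor of each library from the trimmed mean of M values (TMM). This factor offsets differences in the composition of libraries. Library CPM are the same CPM without this factor. Averaged over both libraries, the factor was largest for Huh-7 with 1.67 ± 0.0496 and smallest for A-549 with 0.601 ± 0.0107, whereas MV-3 had 1.16 ± 0.0180 and ES-2 0.857 ± 0.0125 (SD, n = 2). Library CPM give a share of the miRNA pool, and normalised CPM are this share divided by the TMM factor. On both scales, more copies per cell cannot be told apart from fewer copies of other miRNAs. The lines differed in how much of this pool was taken by miR-21-5p, with 64.6% ± 0.610 of reads in A-549 and between 27.6% ± 0.836 and 33.1% ± 0.306 in the other lines.

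miR-191-5p, the guide arm of its hairpin, was the most abundant member in every library. Its normalised CPM were 2734 and 2901 in the ES-2 libraries, 2734 and 2541 in MV-3, 6644 and 6028 in Huh-7, and 2084 and 1771 in A-549. Both Huh-7 libraries lay above, and both A-549 libraries below, all other libraries, while the first libraries of ES-2 and MV-3 were alike. By library CPM the values were 2368 and 2461 in ES-2, 3147 and 2988 in MV-3, 10857 and 10273 in Huh-7, and 1268 and 1051 in A-549. Omitting the TMM factor left Huh-7 at the top and A-549 at the bottom, but it widened the distance and placed MV-3 above ES-2. The line means of Huh-7 and A-549 were 3.29-fold apart by normalised CPM and 9.11-fold by library CPM. Replicates differed far less, with an SD of 4.18% to 11.5% of the line mean by normalised CPM. In the order of abundance within a library, miR-191-5p ranked between 13 in the first Huh-7 library and 50 in the second library of A-549. It was counted with 2165 to 23598 reads, so that the counting error was small in all libraries.

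**Figure D1:**
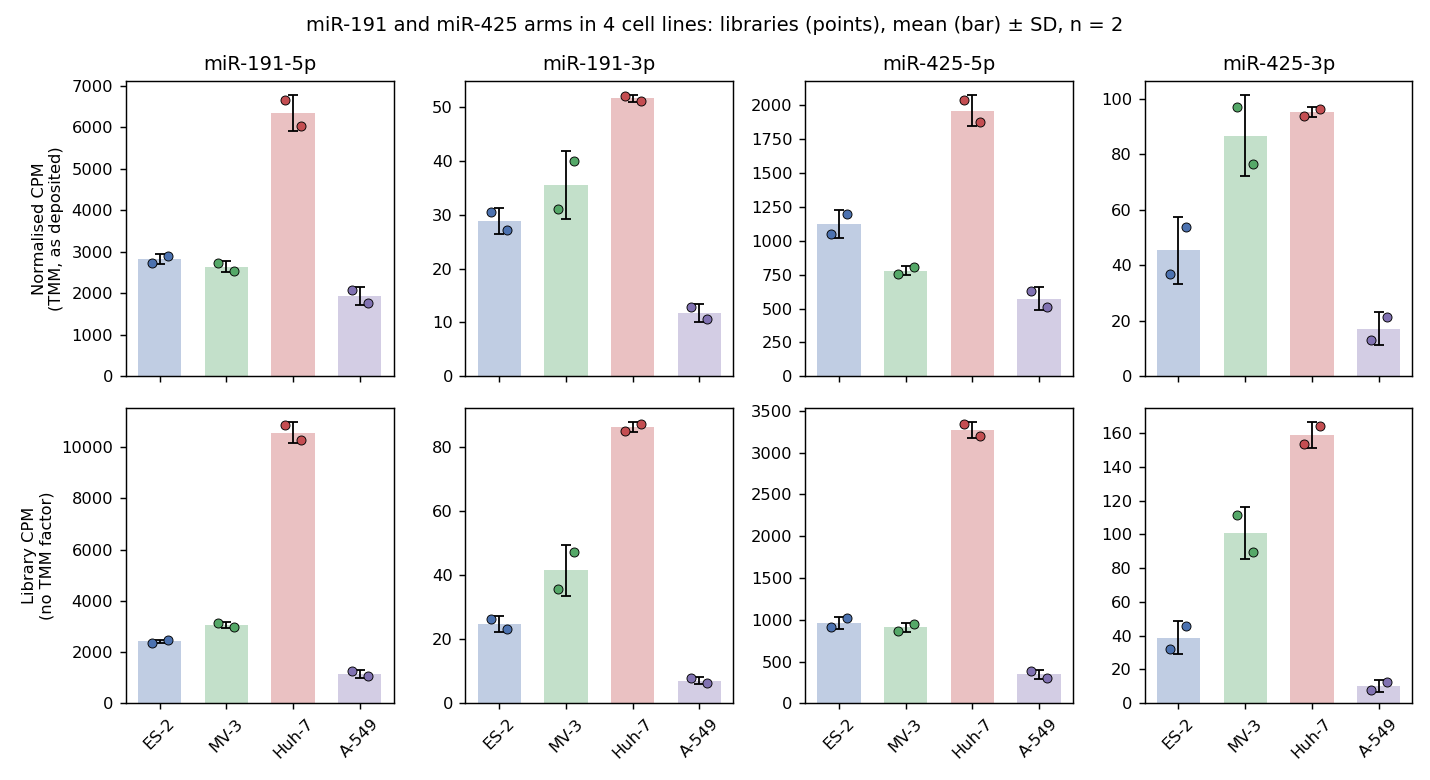
Levels of the 4 members in each library, as normalised CPM (upper row) and library CPM (lower row), with bars for the line mean and error bars for the SD of 2 libraries, on linear axes starting at 0. Huh-7 has the highest and A-549 the lowest mean of each member on both scales, and the distance between them is larger in the lower row, for instance 9.11-fold against 3.29-fold for miR-191-5p.

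miR-425-5p, the more abundant arm of the second hairpin, showed the same highest and lowest lines. Its normalised CPM were 1052 and 1196 in ES-2, 756 and 803 in MV-3, 2043 and 1880 in Huh-7, and 632 and 514 in A-549. The libraries of the 4 lines did not overlap, in the order A-549, MV-3, ES-2 and Huh-7. By library CPM, ES-2 had 912 and 1015, MV-3 870 and 945, Huh-7 3338 and 3204, and A-549 385 and 305, so that ES-2 and MV-3 overlapped. Huh-7 and A-549 were 3.42-fold apart by normalised CPM and 9.49-fold by library CPM.

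The 3p arms were counted with 13 to 333 reads per library and were the minor products of both hairpins. For miR-191-3p, normalised CPM were 30.5 and 27.2 in ES-2, 31.1 and 40.1 in MV-3, 52.1 and 51.2 in Huh-7, and 12.9 and 10.6 in A-549. These values followed the 5p arm in that Huh-7 was above and A-549 below all other libraries. For miR-425-3p they were 36.8 and 53.9 in ES-2, 97.0 and 76.3 in MV-3, 93.8 and 96.3 in Huh-7, and 12.9 and 21.3 in A-549. Here, MV-3 replicate 1 lay above both Huh-7 libraries, so that Huh-7 and MV-3 overlapped. The means of Huh-7 and A-549 were 4.39-fold apart for miR-191-3p and 5.56-fold for miR-425-3p by normalised CPM, and 12.2-fold and 15.5-fold by library CPM. In A-549 these arms rested on 13 to 26 reads, and the SD of miR-425-3p was 34.5% of its mean in this line.

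To test if the members were stable over the 4 lines, limma was applied to log2(CPM + 1) of all 528 miRNAs that passed a filter on low reads, with Benjamini-Hochberg adjustment over all of them and a threshold of 0.01. The 4 members passed the filter, and all 4 differed among the lines by normalised CPM. Of all miRNAs tested, 68.2% were called in this comparison, so that a call was the common outcome. The adjusted p values were 3.84e-05 for miR-191-5p, 8.43e-05 for miR-425-5p, 0.00128 for miR-425-3p and 0.00204 for miR-191-3p in limma's test. By library CPM all 4 were called again, with 79.2% of all miRNAs, and the adjusted p values in limma ranged from 1.77e-06 for miR-191-5p to 0.000157 for miR-191-3p. The quasi-likelihood test of edgeR, applied to whole reads, also called all 4, with 70.3% of all miRNAs. Where single libraries are left out or only 2 lines are fitted, here and below, the share of all miRNAs called is not given. The same holds for all other alternatives except library CPM and edgeR. A changed count of members cannot then be told apart from a general loss or gain of calls. Without either Huh-7 library, 2 of 4 remained called in limma, since the 3p arms had adjusted p values of 0.0117 to 0.0135.

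Between A-549 and Huh-7, all 4 members were lower in A-549 by normalised CPM, compared to 23.7% of all miRNAs that were called lower. For miR-191-5p the log2 fold change was -1.72 (95% interval -1.96 to -1.48, limma's adjusted p = 1.23e-05). For miR-425-5p it was -1.78 (-2.08 to -1.48), for miR-191-3p -2.05 (-2.70 to -1.40) and for miR-425-3p -2.45 (-3.21 to -1.68). The intervals of the members overlapped. By library CPM the log2 fold changes of these members were between -3.19 and -3.86, while the median of all miRNAs was -1.38 on this scale and -0.09 by normalised CPM. Of all miRNAs, 46.2% were called lower by library CPM. The members were thus lower than the median miRNA on both scales.

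In Huh-7 compared to ES-2, miR-191-5p and miR-425-5p were called higher by normalised CPM, 2 of 4 members against 27.7% of all miRNAs called higher. The log2 fold change was 1.17 for miR-191-5p (95% interval 0.93 to 1.41, limma's adjusted p = 7.8e-05) and 0.80 for miR-425-5p (0.51 to 1.10, adjusted p = 0.00137), with a median of all miRNAs of 0.34. The 3p arms were not called, with 0.82 for miR-191-3p and 1.08 for miR-425-3p. Without ES-2 replicate 1 or either Huh-7 library, 1 of 4 was called, since miR-425-5p had adjusted p values between 0.0113 and 0.019 in limma. By library CPM all 4 were called higher, with 43% of all miRNAs. In Huh-7 compared to MV-3, again the pair of 5p arms was called higher, with 26.9% of all miRNAs, by 1.26 for miR-191-5p (1.02 to 1.5) and 1.33 for miR-425-5p (1.03 to 1.63). The 3p arms differed by 0.54 (-0.11 to 1.18) for miR-191-3p and 0.14 (-0.62 to 0.91) for miR-425-3p, and the same 2 of 4 were called by library CPM, with 35.4% of all miRNAs.

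In A-549 compared to ES-2, 3 of 4 members were called lower by normalised CPM, with 17.6% of all miRNAs. The log2 fold change was -0.55 for miR-191-5p (95% interval -0.79 to -0.31, limma's adjusted p = 0.00344), -0.98 for miR-425-5p and -1.23 for miR-191-3p (adjusted p = 0.00822). For miR-425-3p it was -1.37 with an adjusted p of 0.0107 in limma. With edgeR, miR-425-3p was called and miR-191-3p was not, with adjusted p values of 0.00853 and 0.0127 and with 38.6% of all miRNAs called in either direction. By library CPM all 4 were called lower, with 26.5% of all miRNAs. With the replicate number as a block, limma's adjusted p of miR-191-3p was 0.0182. When library size was computed without miR-21-5p, no member was called in this pair, and the log2 fold change of miR-191-5p was -0.03 with an adjusted p of 0.838 in limma. Compared to library CPM, this scaling raises all miRNAs of A-549 against ES-2, since miR-21-5p took 64.6% and 27.6% of their reads. The share of all miRNAs called lower under it is not given here. Without either ES-2 library, either Huh-7 library or A-549 replicate 2, miR-425-5p was the 1 member called. The adjusted p of miR-191-5p was then between 0.0104 and 0.0295 in limma, and that of miR-191-3p exceeded 0.01 when any of the 8 libraries was left out.

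In A-549 compared to MV-3, miR-191-5p, miR-191-3p and miR-425-3p were called lower by normalised CPM, 3 of 4 members against 15.5% of all miRNAs. The log2 fold change of miR-191-5p was small, at -0.46 (95% interval -0.70 to -0.22, limma's adjusted p = 0.00839), and that of miR-425-5p was -0.45 without a call (adjusted p = 0.021). The 3p arms differed more, by -1.51 for miR-191-3p and -2.30 for miR-425-3p. With TMM replaced by RLE factors computed in edgeR, the adjusted p of miR-191-5p was 0.0173 in limma. The call of miR-191-5p was also lost on leaving out any single library except A-549 replicate 1. Without either MV-3 library, either Huh-7 library or A-549 replicate 2, 1 of 4 members was called. By library CPM all 4 were called lower, with 30.1% of all miRNAs, and the log2 fold change of miR-191-5p was -1.41.

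MV-3 against ES-2 was the pair with the fewest calls. By limma, 0 of 4 members were called on either scale, compared to 25.8% of all miRNAs by normalised CPM and 27.1% by library CPM. edgeR likewise called 0, with 26.1% of all miRNAs. In limma, 2 members had an unadjusted p below 0.05 by normalised CPM and 3 by library CPM. The share of all miRNAs below this unadjusted threshold is not given here, so that these counts are not read as a difference of the members. For miR-191-5p the log2 fold change was -0.10, and its 95% interval of -0.33 to 0.14 bounded the ratio between 0.793 and 1.10. By library CPM it was 0.34, in the opposite direction, with an interval of 0.11 to 0.58 and limma's adjusted p = 0.0289, and the median of all miRNAs moved alike, from 0 to 0.36. For miR-425-5p, the log2 fold change was -0.53 (-0.82 to -0.23, adjusted p = 0.0169 in limma) by normalised CPM and -0.09 (-0.39 to 0.22) by library CPM. With RLE factors this miRNA was called, with -0.56 and limma's adjusted p = 0.00773. For miR-425-3p, normalised CPM gave 0.93 (0.17 to 1.70) without a call.

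**Figure D2:**
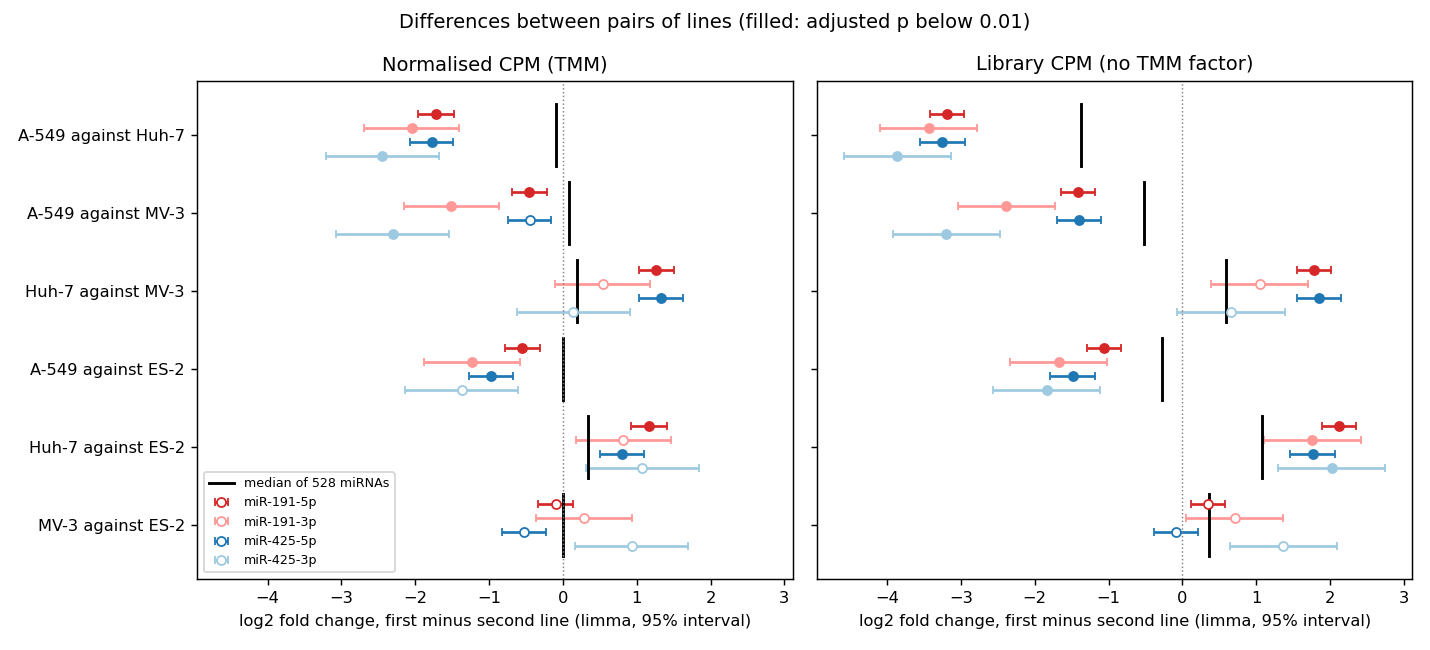
Log2 fold changes of the 4 members for the 6 pairs of lines, by normalised CPM (left) and library CPM (right), with 95% intervals from limma. Filled points have an adjusted p below 0.01 and black lines mark the median of 528 miRNAs, which moves from -0.09 to -1.38 for A-549 against Huh-7 when the TMM factor is omitted.

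Over the 6 pairs, 14 of 24 comparisons of a member were called by normalised CPM, 4 higher and 10 lower, and 18 by library CPM. Of all comparisons of the 528 miRNAs over these pairs, 42.5% were called by normalised CPM and 50% by library CPM. miR-191-5p was called in 5 of 6 pairs on both scales, as were 15.3% of miRNAs in at least 5 pairs by normalised CPM and 22% by library CPM. miR-425-5p was called in 4 pairs by normalised CPM, where 31.1% of miRNAs were called in at least 4, and in 5 by library CPM. The 6 pairs share lines and are not independent. The order of lines for miR-191-5p was thus A-549, MV-3, ES-2 and Huh-7 by normalised CPM, in which the neighbours MV-3 and ES-2 were not separated by the test. For miR-425-5p the order was the same, and its neighbours A-549 and MV-3, and MV-3 and ES-2, were not separated.

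To compare members independently of any scaling, ratios of reads within a library were determined and tested by exact permutation of the F ratio over all ways to divide the 8 libraries into 4 pairs (two-sided, smallest possible p = 0.00952). Of 3 ratios tested, that of miR-191-5p to miR-425-5p varied least. It was 2.60 and 2.43 in ES-2, 3.62 and 3.16 in MV-3, 3.25 and 3.21 in Huh-7, and 3.30 and 3.45 in A-549. ES-2 lay below the other lines, which overlapped, and the line means spanned 1.35-fold. This variation was not separated from the spread of libraries (exact permutation p = 0.114, adjusted p = 0.114). While the line means of the 5p arms spanned 3.29-fold and 3.42-fold by normalised CPM, the proportion of the hairpins in the reads of the cluster was nearly constant, since MIR191 gave 76.7% ± 0.308 of these reads in A-549, 75.6% ± 0.247 in Huh-7, 75.5% ± 1.31 in MV-3 and 70.9% ± 1.17 in ES-2 (SD, n = 2). All 4 members combined took 1.41% ± 0.0498 of the miRNA reads of Huh-7, but 0.412% ± 0.00662 of those of MV-3, 0.344% ± 0.0146 of those of ES-2 and 0.152% ± 0.0208 of those of A-549.

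The proportion of arms within a hairpin was examined next. For miR-191, reads of the 5p arm exceeded those of the 3p arm 89.5-fold and 107-fold in ES-2, 88.0-fold and 63.4-fold in MV-3, 128-fold and 118-fold in Huh-7, and 161-fold and 167-fold in A-549. This ratio was highest in A-549 and lowest in MV-3, 2.16-fold apart in their means, and differed between lines (exact permutation p = 0.00952, adjusted p = 0.0286). The A-549 values of this ratio rested on 21 and 13 reads of miR-191-3p, so that their closeness and their distance from Huh-7 are uncertain. For miR-425 the excess of the 5p arm was smaller. It was 28.6-fold and 22.2-fold in ES-2, 7.79-fold and 10.5-fold in MV-3, 21.8-fold and 19.5-fold in Huh-7, and 48.9-fold and 24.2-fold in A-549. The 3p arm of miR-425 thus took its largest proportion in MV-3, where both libraries lay below those of all other lines. Over the 4 lines the exact permutation p was 0.0381 and the adjusted p 0.0571, above a threshold of 0.05. The A-549 value of this ratio rested on 21 and 26 reads of miR-425-3p, and the line means were 3.99-fold apart with both libraries, 5.34-fold without A-549 replicate 2 and 2.77-fold without A-549 replicate 1.

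**Figure D3:**
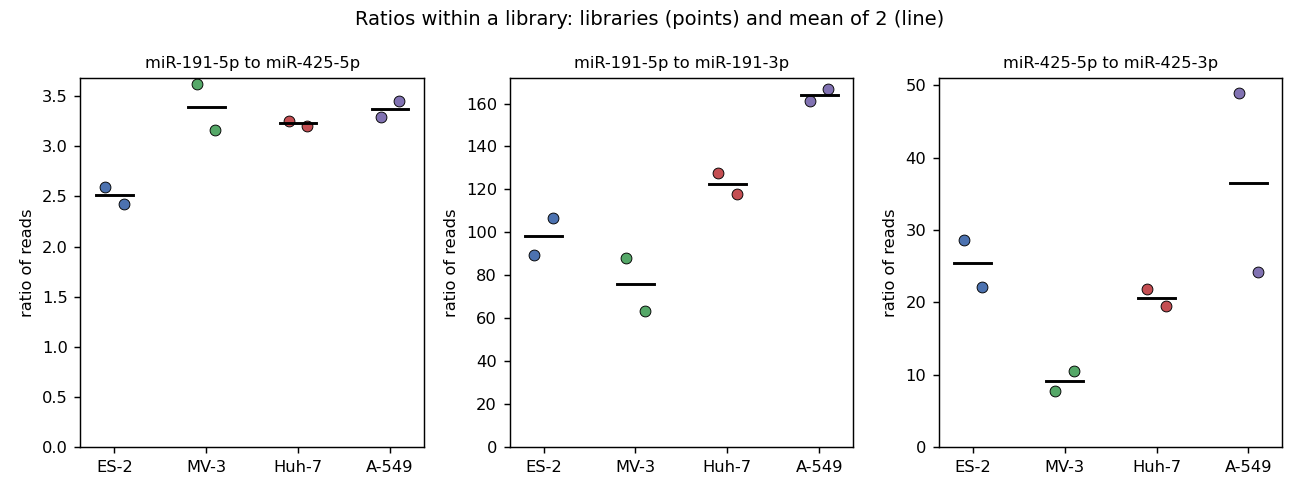
Ratios of reads within each library, with 1 point per library and a line for the mean of 2, on linear axes starting at 0. The ratio of miR-191-5p to miR-425-5p stays between 2.43 and 3.62, whereas the ratio of arms ranges from 63.4 to 167 for miR-191 and from 7.79 to 48.9 for miR-425.

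The stability of the members was next placed among all miRNAs, as a description without a test. As a measure, the SD of the 4 line means of log2(CPM + 1) was used. By normalised CPM it was 0.73 for miR-191-5p and 0.76 for miR-425-5p, compared to a median of 1.39 for the 528 miRNAs, with 22.4% and 24.5% of the other miRNAs varying less. It was 0.87 for miR-191-3p and 1.13 for miR-425-3p. By library CPM the SD was 1.33 for both 5p arms, the median of all miRNAs was 1.58, and 39.8% and 40.0% of the other miRNAs varied less. miRNAs with few reads vary by counting error. Among the 181 miRNAs whose mean reached 100 normalised CPM or more, miR-191-5p ranked 59 and miR-425-5p 62 by normalised CPM, and 88 and 89 by library CPM. Both were thus close to the middle of abundant miRNAs when scaled by library size. By a measure free of scaling they ranked nearer to the low end. The SD over 8 libraries of the log2 ratio to each other miRNA had a median of 1.70 for miR-191-5p and 1.74 for miR-425-5p, and 3.61% and 9.49% of the other miRNAs had smaller medians. Among the abundant miRNAs, the corresponding values were 7.22% and 20%, at ranks 14 and 37 of 181. Such a median is small for a miRNA whose level moves with that of many others, and does not show a constant level. One abundant miRNA with only a 1.12-fold range of line means by normalised CPM had a median of 1.71, slightly above that of miR-191-5p.

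**Figure D4:**
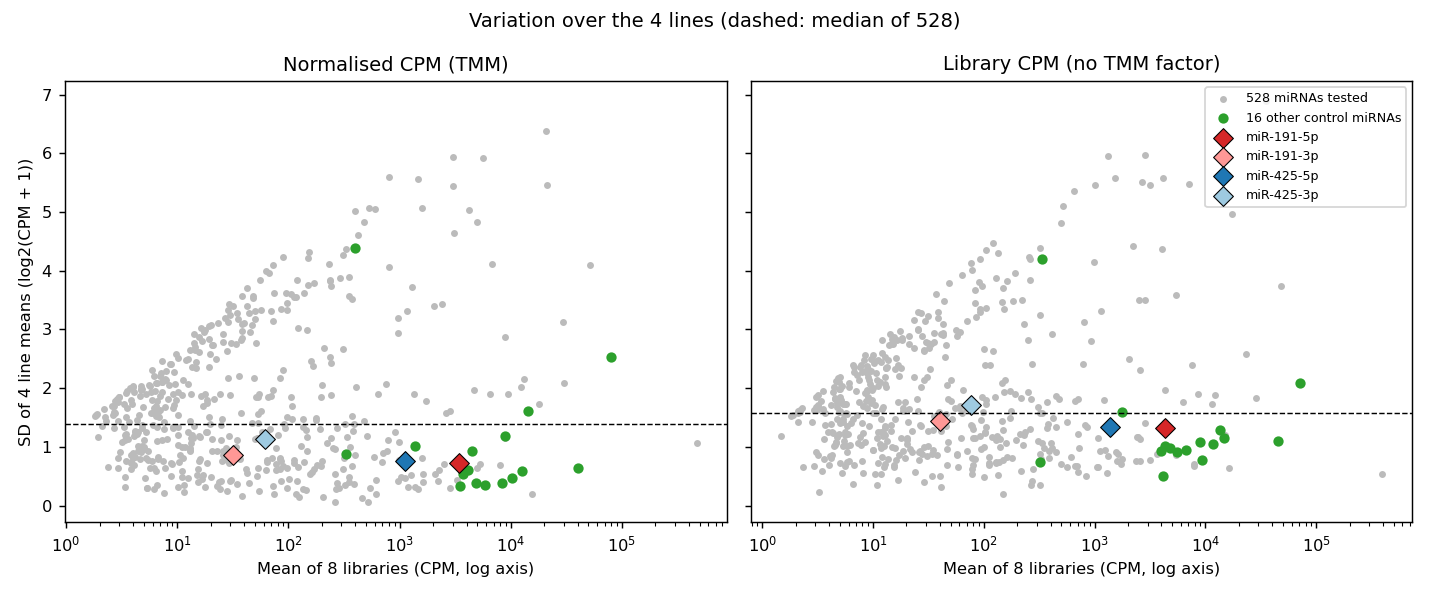
SD of the 4 line means of each tested miRNA against its mean abundance, by normalised CPM (left) and library CPM (right), with a log axis for abundance. The 5p arms lie at 0.73 and 0.76 on the left and at 1.33 on the right, below the dashed medians of 1.39 and 1.58, and most of the 16 other control miRNAs have a smaller SD on the right.

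miR-191-5p and miR-425-5p were then compared to 16 other miRNAs that are used as endogenous controls in miRNA assays. All 16 were tested and all 16 were called among the 4 lines on either scale in limma, compared to 68.2% of all miRNAs by normalised CPM and 79.2% by library CPM. Their median SD of line means was 0.62 by normalised CPM and 1.04 by library CPM. Among these 18 miRNAs, miR-191-5p and miR-425-5p ranked 10 and 11 from the most stable by normalised CPM and 14 and 15 by library CPM. The smallest SD by normalised CPM were those of miR-16-5p, a member of the miR-15/16 family, with 0.33 and a 1.71-fold range of line means, and of miR-93-5p, from the miR-106b-25 cluster, with 0.36 and a 1.67-fold range. The largest were those of the tumor-suppressive let-7a-5p, with 2.53 and a 45.6-fold range, and of miR-361-5p. With 0 and 1 reads, miR-361-5p was at the limit of detection in Huh-7, and it was at least 923-fold higher in ES-2, as calculated against 3 reads in each Huh-7 library. Without any scaling factor, the mean SD of the log2 ratio to the other 17 was 1.19 for miR-191-5p and for miR-425-5p. This placed them at 11 and 10, and the smallest was 1.02 for miR-16-5p. For each 5p arm of the cluster, the other 17 included the opposite hairpin's 5p arm with an SD of 0.20, which lowered its mean.

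**Figure D5:**
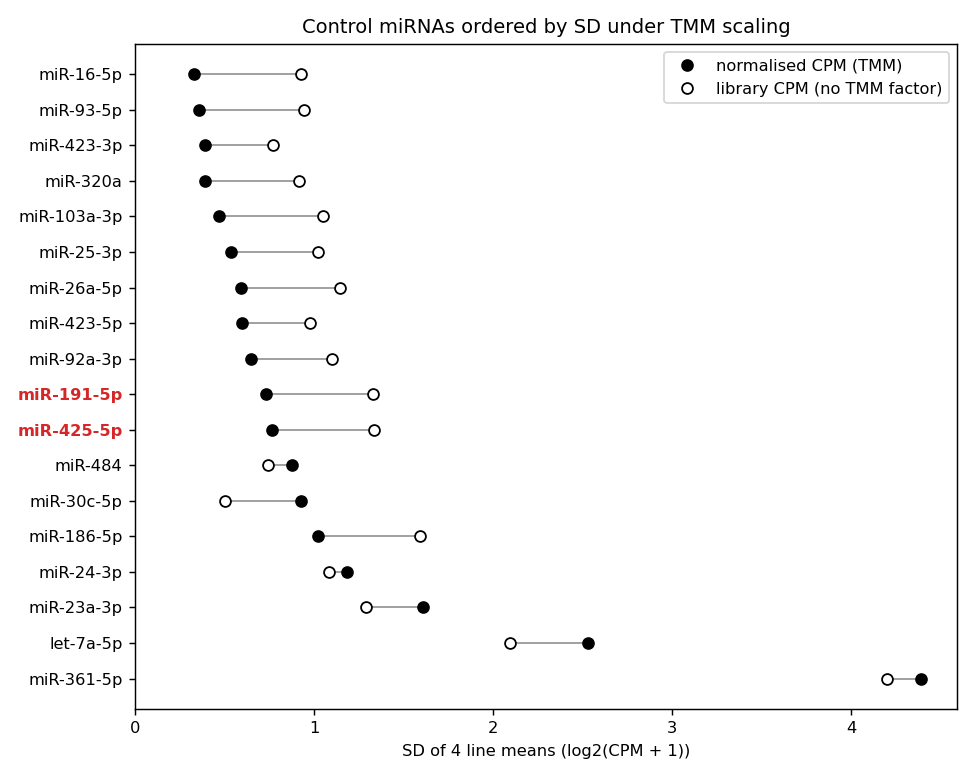
SD of the 4 line means of 18 miRNAs used as endogenous controls, ordered by the SD under TMM scaling (filled) and joined to the SD by library CPM (open). miR-191-5p and miR-425-5p (red names) are 10 and 11 from the top, and their SD rises from 0.73 and 0.76 to 1.33 without the TMM factor.

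Finally, the miRNAs most similar to the 5p arms were identified among the other 180 abundant miRNAs by the SD of the log2 ratio over the 8 libraries. The closest to miR-191-5p was miR-425-5p from the same transcript, with an SD of 0.20. It was followed by miR-15a-5p and miR-128-3p, each with 0.29. For miR-425-5p, miR-191-5p was followed by miR-186-5p with 0.26 and miR-26a-5p with 0.29. By normalised CPM, the mean of miR-186-5p fell from 2683 in Huh-7 over 1375 in ES-2 and 895 in MV-3 to 501 in A-549, and so had the order of lines of miR-425-5p. miR-26a-5p had the same order, with 17296 in Huh-7, 15253 in ES-2, 10680 in MV-3 and 6939 in A-549. How many of all miRNAs share this order was not determined. Of the similar miRNAs named here, miR-186-5p and miR-26a-5p were among the 16 other controls.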

How the data were processed

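Total RNA of the 8 cultures was extracted with TRIZOL and sequenced as small RNA on an Illumina instrument. According to the methods and the submitters' processing notes, reads were trimmed with cutadapt 1.14, aligned to GRCh38 with Bowtie2 2.3.2, counted on miRBase 21 miRNAs with featureCounts 1.5.3, and normalised by TMM in edgeR 3.18.1. The handling of multiply aligned reads, of strand and of the random bases in the adapters is not given in the sources used here.

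The deposited signal values are whole reads times a constant of each library. With a tolerance of 0.001, 100% of values came out whole, which gave back the reads, library sizes and TMM factors. Entries of the 167 names with several were summed. The design had foreseen normalised values, and limma 3.58.1 was applied to log2(normalised CPM + 1) with 1 term per line (4 residual degrees of freedom) and a mean-dependent prior, after filterByExpr. A fold change on this scale understates changes of miRNAs with few reads. edgeR 4.0.16 and DESeq2 1.42.0 on the recovered reads were alternatives, in R 4.3.3. The edgeR test on recovered reads called 371 of 528 miRNAs among the 4 lines.

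Reads are not molecules, and intervals cover counting error only where they concern reads. The labels call the libraries of a line replicates, and the study calls them biological. The members, lists and tests were chosen with earlier results of these data known. The miRNAs named are the 4 members, miR-21-5p, the 2 most and 2 least variable other controls, and the 3 closest to each 5p arm. miR-122-5p was added as a check. Scripts were tested on simulated data.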

Additional observations from a re-analysis of the deposited data

How the results depend on the processing

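Of 432 log2 fold changes of members recomputed under alternatives, 371 kept their direction and side of the threshold, 46 lost and 11 gained a call, and 4 changed direction. The last were miR-191-5p in MV-3 against ES-2 with library size only (0.34) and with library size without miR-21-5p (0.45), miR-425-5p in the same pair with library size without miR-21-5p (0.018), and miR-425-3p in Huh-7 against MV-3 without MV-3 replicate 2 (-0.029, range -0.029 to 0.31 without single libraries).

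All 4 members differed among the lines under each alternative except without Huh-7 replicate 1 or 2, where 2 remained called (range 2 to 4) and the 3p arms had limma's adjusted p values of 0.0117 to 0.0135. In MV-3 against ES-2, 0 became 1 with an adjusted p below 0.05, RLE factors or DESeq2, and it was 0 without each library. In Huh-7 against ES-2, 2 became 4 with an adjusted p below 0.05, with library size only and without miR-21-5p in the library size, and 1 without ES-2 replicate 1, Huh-7 replicate 1 or Huh-7 replicate 2 (range 1 to 2). In A-549 against ES-2, 3 became 0 without miR-21-5p in the library size and in a fit of only the 2 lines, and 1 without either ES-2 library, either Huh-7 library or A-549 replicate 2 (range 1 to 2). In A-549 against MV-3, 3 became 0 in a fit of only the 2 lines and 1 without either MV-3 library, either Huh-7 library or A-549 replicate 2 (range 1 to 3). Leaving out a library left 1 in its line, assumed to vary like the others. The share of all miRNAs called is not given here. Counts in Huh-7 against MV-3 (2) and A-549 against Huh-7 (4) were the same throughout. The replicate numbers were not treated as a pairing, since deviations of same-numbered libraries correlated above 0.1 in only 1 of 6 pairs of lines (r from -0.05 to 0.232). With 2 per line, this cannot show if same-numbered libraries were handled together. With the replicate block, the call of miR-191-3p in A-549 against ES-2 was lost (2 of 4 called), and no other call of a fold change was altered.

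The fold range of line means was 9.11 with library size only, 2.80 with RLE factors and 4.81 without miR-21-5p in the library size for miR-191-5p, and 9.49, 2.92 and 5.01 for miR-425-5p. Without single libraries it was 3.04 to 3.58 and 3.1 to 3.82. For the ratio of the 5p arms it was 1.30 to 1.44, for the arms of miR-191 1.86 to 2.58 and for those of miR-425 2.77 to 5.34. With the replicate block, lines could be permuted only within a replicate number, in 24 arrangements with a smallest p of 0.0417. The exact permutation p was then 0.208 for the 5p arms and 0.0417 for the arms of either hairpin, with an adjusted p of 0.0625, so that the call of the arms of miR-191 was lost at a threshold of 0.05, which this design could pass after adjustment only if all 3 ratios reached the smallest p. The share of other miRNAs with a smaller SD was 39.8% with library size only, 18.8% with RLE factors, 32.2% among abundant miRNAs and 3.61% by pairwise ratios for miR-191-5p. For miR-425-5p it was 40.0% with library size only, 33.9% among abundant miRNAs and 9.49% by pairwise ratios. Without single libraries it was 20.5% to 25% and 21.1% to 26.6%.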

Other observations

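The effect of using a member as the sole reference was calculated from the same fits. Relative to miR-191-5p, the median of the 528 miRNAs would lie at a log2 fold change of 1.63 in A-549 against Huh-7, -0.83 in Huh-7 against ES-2, -1.07 in Huh-7 against MV-3, 0.56 in A-549 against ES-2, 0.54 in A-549 against MV-3 and 0.10 in MV-3 against ES-2. Of the 528 miRNAs, 76.3% would be higher in A-549 than in Huh-7, whereas by library CPM the median in this pair was -1.38. Relative to miR-425-5p the median would be 1.69 in A-549 against Huh-7 and 0.53 in MV-3 against ES-2. Each value is the median log2 fold change by normalised CPM less that of the reference. Subtracting a reference moves all miRNAs of a pair by the same amount. The median itself was -0.09 in A-549 against Huh-7 and 0.34 in Huh-7 against ES-2. The relative values come from the same libraries, and no measurement of RNA per cell was used here to set them against.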
